A study of Mus musculus with 2 samples.

Results

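Among the transcript models counted by long-read RNA-seq in the adrenal gland of C57BL/6J mice, 727 were classed as intergenic and either carried a splice junction or were read more than once. The class is the deposited one: 158 of the 725 with a KNOWN gene on their chromosome overlapped such a gene in their own library's annotation. KNOWN is the status that annotation gives to a GENCODE gene. They were chosen by measured values: a model was taken when its table gave its class as intergenic and it had 2 or more exons, or a count of 2 or more reads, in that library. The rule took 514 of 88152 models in replicate 1 and 213 of 92074 in replicate 2, 727 of 180226 in all. Of these, 254 were spliced (155 and 99) and 473 were unspliced (359 and 114). Both libraries are of 1 group, total RNA of the whole gland with no treatment. Their labels describe females while the sex field was not filled in, and no age is given. The labels name separate biosamples, so the spread between the libraries is between 2 glands or sets of glands as well as between preparations. With a single group there was no contrast between conditions, and every test below compares these libraries and their reads.

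The adrenal cortex makes steroid hormones and the medulla makes catecholamines, and both draw on a small set of very abundant transcripts. Transcripts between annotated genes include long noncoding RNAs, which are often spliced, read at low levels and specific to a tissue, and protein-coding genes that an annotation has not yet taken up. A spliced read carries a junction and so has a structure, while an unspliced one has only its ends. Chromatin, poly(A) signals and splice site sequences were not analysed here.

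Some spliced models shared a pair of small internal exons whose lengths are frequent in genes named Zfp, the symbol of zinc finger protein genes. KRAB zinc finger proteins are a large, fast-evolving family of DNA-binding repressors, best known for silencing transposable elements, and their genes lie in clusters. In such genes the KRAB A and B boxes are coded by small separate exons ahead of a long last exon with the zinc fingers. Of 160 internal exons in the 254 spliced models, 8 were 127 nt long, in 5 loci, and no other length but 61 nt was found more than 4 times. In 3 of those loci the 127-nt exon was followed by one of 61 nt, in 5 of the 38 models with at least 2 internal exons. In GENCODE M21, 153 of 20839 genes with at least 2 consecutive internal exons held the same pair (0.734%), and 54 of the 153 (35.3%) had names in Zfp, which 1.71% of the 20839 genes have. The rest of the 153 have other names. An internal exon of 127 nt alone was in 1558 of 25652 genes (6.07%), of which 233 (14.96%) were named Zfp. No list of KRAB genes and no protein sequence was compared. This exon pair was noticed after the values had been seen, and its counts are a description.

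Promoter sequence could be read for 4 of the 5 loci, because their 5′ ends fell in windows that RefSeq gives around gene starts on GRCm38.p6, the assembly also called mm10. A window runs from 250 bases before a gene's start to 50 bases after it. The sequences are shown because the windows of these 4 loci, on chromosomes 5 and 17, share a string. Each is 100 bases, 5′ to 3′, all from the plus strand of chromosome 17 or 5, and the model's 5′ end is the base after the 70th. Capitals mark the longest string common to all 4 windows, CTGCCAGTCA.
Gm51425 (chr17:17005045-17005144): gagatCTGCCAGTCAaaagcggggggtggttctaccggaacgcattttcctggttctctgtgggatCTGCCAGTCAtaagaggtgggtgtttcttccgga
Gm38396 (chr17:17179221-17179320): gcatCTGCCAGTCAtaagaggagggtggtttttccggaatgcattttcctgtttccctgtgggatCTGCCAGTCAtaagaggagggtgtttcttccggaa
Zfp33b (chr5:104571571-104571670): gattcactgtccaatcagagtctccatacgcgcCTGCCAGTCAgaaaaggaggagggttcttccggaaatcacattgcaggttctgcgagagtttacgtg
AB010352 (chr5:109866640-109866739): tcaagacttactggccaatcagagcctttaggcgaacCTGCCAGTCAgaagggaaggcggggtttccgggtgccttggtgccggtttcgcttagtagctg

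The string stood 2 times in the windows of Gm51425 and Gm38396, and in both the model began inside the second copy. It stood 1 time in the windows of Zfp33b and AB010352, starting 37 and 33 bases before the model's 5′ end. Over all 32851 RefSeq windows, 112 held CTGCCAGTCA on either strand (0.341%). Of the 408 windows of genes named Zfp, 23 held it (5.64%), all on the strand of the gene. Since the string was picked as the longest common to these windows, its presence in them is not a result. The shares count these windows too, and only say how rare the string is.

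The Gm51425 locus (chr17:17005114-17041386, plus strand) had 5 reads in replicate 1 and 8 in replicate 2, all on 4-exon models with the same 3 junctions. Exons 2 and 3 were 127 and 61 nt and the last exon was 2390 nt in both libraries. The 5′ ends were 2 bases and 1 base before the start of RefSeq's protein-coding gene Gm51425, and the 3′ ends were at the same base. Nothing in M21 overlapped the locus, and the nearest KNOWN gene, the zinc finger gene Zfp960, began 22727 bases downstream.
The Gm38396 locus on the same chromosome (chr17:17179290-17206384, plus strand) had 4 reads and 1 read, again on 4-exon models with equal junctions, and exons of 127 and 61 nt. Its last exon measured 1801 and 1967 nt. The Zfp33b locus (chr5:104571641-104584638, plus strand) had 1 read and 3 reads on 3-exon models with a 127-nt middle exon and a last exon of 2462 and 2487 nt. AB010352, which has the synonym Mszf33 in RefSeq, had a 4-exon intergenic model with 2 reads in replicate 1 (chr5:109866710-109883106, plus strand) and none in replicate 2, where the same chain of junctions was counted in a model of another class. The fifth locus with the 127-nt exon (chr5:109836637-109845052, minus strand) had 3 reads in replicate 1 and lay 2492 bases from Gm10416. The pair on chromosome 17 thus showed the same structure in both libraries at counts of 1 to 8 reads.

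**Figure D1:**
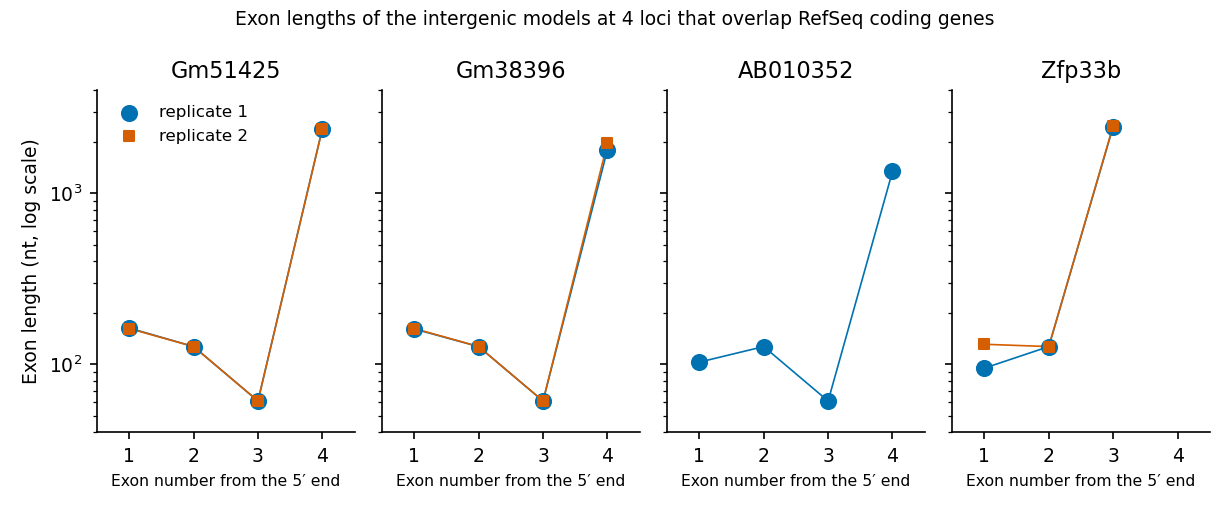
Exon lengths in nt (log axis) by exon number from the 5′ end, for the intergenic models at 4 loci, with replicate 1 as circles and replicate 2 as squares. Exons 2 and 3 are 127 and 61 nt at Gm51425, Gm38396 and AB010352, and exon 2 is 127 nt at Zfp33b, while the last exon is over 1000 nt at each.

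By reads the members were a small and uneven part of the libraries. They held 2956 of 810239 reads in replicate 1 (0.365%, 95% Clopper-Pearson interval 0.352 to 0.378%) and 1594 of 587861 in replicate 2 (0.271%, 0.258 to 0.285%), a mean of 0.318% ± 0.0662 (SD, n = 2). Intervals cover counting error only, since amplified reads are not independent molecules. Spliced members took 0.0288% and 0.0250% of the reads and unspliced members 0.336% and 0.246%. A few models carried a large part of the member reads: the 10 most read held 47.4% of them in replicate 1 and 70.1% in replicate 2. At the other end, 128 of the 155 spliced members of replicate 1 and 84 of the 99 of replicate 2 rested on 1 read. Just inside the count threshold were 245 unspliced models with exactly 2 reads (180 and 65), and just outside it 2516 unspliced models with 1 read (2019 and 497).

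Most spliced members were short chains. In replicate 1, 95 had 2 exons, 40 had 3, 12 had 4, 6 had 5 and 2 had 6. In replicate 2, 60 had 2 exons, 21 had 3, 12 had 4, 2 had 5, 1 had 6 and 3 had 7. The 414 introns had a median of 1844 nt, close in the libraries (1799 and 1913 nt). Model length differed far more, with medians for members of 1261 nt in replicate 1 against 2772 in replicate 2. The same held for all counted models (1543 and 2851 nt), so the length of members moved with that of the library, and its part in the number of members was not tested.

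The 12 loci with the most reads were named by a fixed rule, a locus being the union of intergenic models that overlap on 1 strand. The gap given for a locus is that of its most read model. There were 648 loci with a member, 232 of them spliced and 416 unspliced. Locus 1 (chr13:55184731-55187844, plus strand) lay 15972 bases downstream of Fgfr4, a fibroblast growth factor receptor. It had 765 intergenic reads in replicate 1, on an unspliced model of 2877 nt, and 1 in replicate 2, on a 2-exon model. Replicate 2 nevertheless had 2319 reads there on an unspliced model of the incomplete-match class, which was filed under Zfp346, whose zinc finger protein binds double-stranded RNA. In the annotation of replicate 2 Zfp346 ran to base 55187844, and in M21 it ended at 55134825. Counting models of any class on the same strand whose exons overlapped the locus by at least 50% of the shorter one gave 774 and 2325 reads. Intergenic reads were thus far higher in replicate 1 and reads of any class were higher in replicate 2.

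Locus 2 (chr14:32115639-32118244, plus strand), 13357 bases downstream of Oxnad1, had 109 reads on a 2601-nt model and 463 on a 2606-nt model, both unspliced and with their ends 2 bases apart at the 5′ end and 3 at the 3′ end. Oxnad1 itself had 3 and 8 reads. Locus 4 (chr2:75638367-75640171, plus strand), 4986 bases from the processed pseudogene Gm13655, had 86 reads on a 1805-nt model and 116 on a 1797-nt model. Locus 5 (chr5:135624010-135631854, plus strand), upstream of the rhomboid-like gene Rhbdd2, had 60 and 81 reads, and its most read models began at the same base, 135624010, and ended 1266 bases apart. Loci 2 and 4 thus had nearly the same ends in both libraries, and locus 5 the same 5′ end.

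Locus 3 (chr15:82362811-82367881, plus strand) lay past the end of Cyp2d22, a cytochrome P450, on the opposite strand. The gap was 2646 bases for the model of replicate 1 and 4897 for the most read one of replicate 2. The locus had 7 intergenic reads in replicate 1 on a 2-exon model and 222 in replicate 2, 221 of them on an unspliced one. Reads of any class were 86 and 222, since replicate 1 had 79 more in models of the genomic class. Locus 7 (chr11:86811829-86816128, minus strand), upstream of the helicase gene Dhx40, had 14 and 104 intergenic reads, and 53 and 104 of any class. Locus 10 (chr12:23023207-23026668, minus strand) near the pseudogene Gm48064 had 7 and 60, and 16 and 61 of any class. At each of these, part of the reads of replicate 1 were in another class.

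Locus 6 (chr2:180719362-180720800, plus strand) began 632 bases after the end of Gid8 in replicate 1, a subunit of the GID ubiquitin ligase, and had 123 intergenic reads in replicate 1 and 0 in replicate 2. There the annotation of replicate 2 extended Gid8 to base 180721595, and 11 reads on Gid8 models covered the locus. Locus 8 (chr11:100457022-100461668, plus strand) started on the base where Klhl10 ends in M21 and had 92 and 0. Locus 11 (chr16:91507441-91510516, plus strand) had 45 and 0, of which 44 were on a model that began 1463 bases after Ifnar1, a chain of the type I interferon receptor. Loci 6, 8 and 11 also had reads on the opposite strand in replicate 1 (126, 24 and 52) and fewer in replicate 2 (22, 11 and 0). Locus 12 (chr2:118554700-118558321, plus strand), upstream of the apoptosis gene Bmf, had 34 and 4. Locus 9, on an unplaced scaffold with no KNOWN gene, had 60 and 10 reads on models of 542 and 572 nt.

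**Figure D2:**
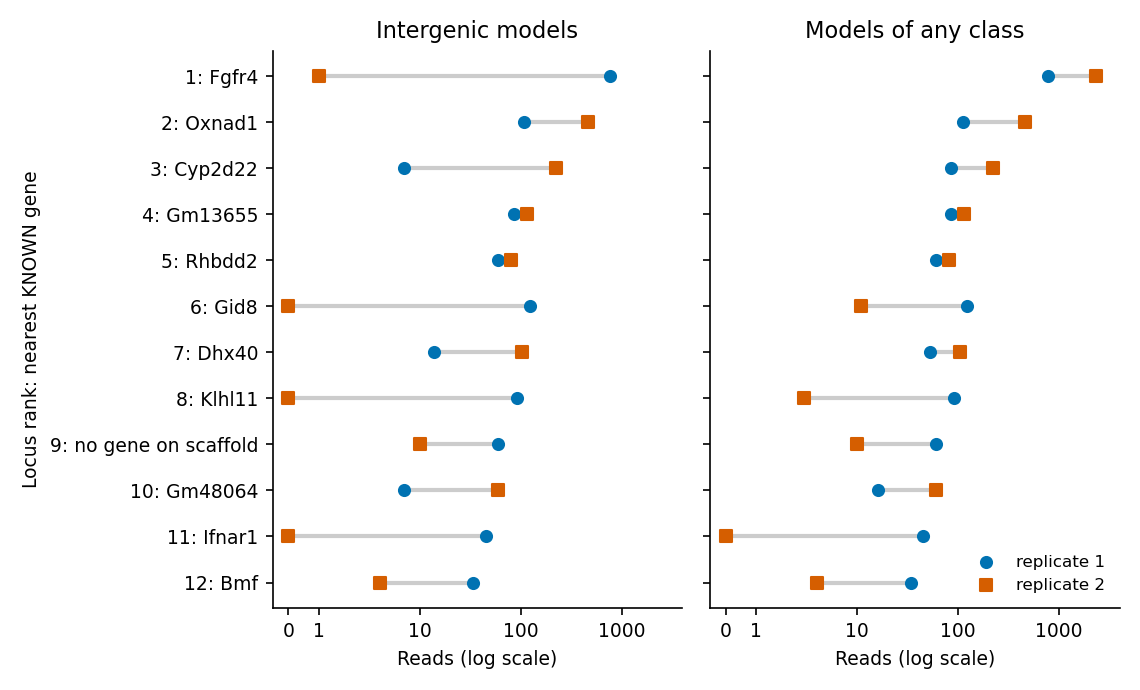
Reads (log axis, 0 drawn at the left end) of the 12 most read loci in replicate 1 (circles) and replicate 2 (squares), on intergenic models in the left panel and on models of any class on the same strand in the right one. Locus 1 goes from 765 and 1 reads to 774 and 2325, and locus 3 from 7 and 222 to 86 and 222, while loci 2, 4, 5, 9 and 12 hardly move.

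The libraries were compared locus by locus with the exact two-sided binomial test, with shares set by TMM-scaled library sizes and Benjamini-Hochberg adjustment at 0.05 over all 9854 annotated genes and intergenic loci with at least 10 reads. TMM is a scaling that centres the ratios of most genes. Of these features 66.8% were called, 34.8% higher in replicate 1 and 31.9% higher in replicate 2, so that a call is the common outcome between these libraries. All 45 intergenic loci with 10 reads or more were members, and 35 of them (77.8%) were called: 26 had more reads in replicate 1 and 9 in replicate 2. The rule and the test use the same intergenic reads, and loci such as 6, 8 and 11 entered through replicate 1 alone, so these counts describe the members and are not independent of their choice. Their median log2 ratio of replicate 2 over replicate 1 was -2.55, beside 0.0019 over all features. In whole tissue, fewer cells of a type and less RNA per cell cannot be told apart.

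With reads of any class, 65 member loci were tested and 42 were called (64.6%): 27 had more reads in replicate 1 and 15 in replicate 2. Over all features the shares were 66.7%, 34.8% and 31.9%. The members' median log2 ratio was -0.79. Of the 35 loci called on intergenic reads, 30 were called in the same direction, 2 turned and 3 were no longer called. On reads of any class the 65 member loci thus gave calls at about the rate of all features. Their median log2 ratio stayed below that of all features, 0.0022. These are not the same loci as the 45 tested on intergenic reads, so the share called there is not a like comparison.

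Locus 1 was 764-fold higher in replicate 1 on intergenic reads (95% interval 137 to 30210) and 3.01-fold higher in replicate 2 on reads of any class (2.77 to 3.27), with adjusted p of 5.98e-226 and 3.77e-177 in the exact binomial test. Locus 2 was 4.25-fold higher in replicate 2 (3.44 to 5.29, exact binomial test, adjusted p = 7.18e-52), and 4.18-fold with any class. Locus 3 was 31.8-fold higher in replicate 2 (15.2 to 79.9) and 2.58-fold with any class (2.01 to 3.36). Locus 4 did not pass the test, at 1.35-fold higher in replicate 2 (1.01 to 1.81, exact binomial test, adjusted p = 0.052), and neither did locus 5, at 1.35-fold (0.956 to 1.92, exact binomial test, adjusted p = 0.107). Against the 3 reads that a count of 0 allows, locus 6 was at least 40.9-fold, locus 8 at least 30.6-fold and locus 11 at least 14.98-fold higher in replicate 1. With any class the first fell to 11.2-fold (6.03 to 22.9).

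Taken over all 648, loci were found again in the other library less often than not. Of the 648 loci, 149 (22.99%, 19.8 to 26.4%) had intergenic reads in both libraries and 200 (30.9%) had reads of any class in both. Among the 45 loci with at least 10 reads, 32 had intergenic reads in both (71.1%), and of the 603 with fewer, 117 (19.4%). That split uses the reads of both libraries, and a locus with 1 read in all cannot have reads in both, so the shares are a description. The 508 loci with a member in replicate 1 had intergenic reads in replicate 2 in 23.8% of cases, and the 212 with a member in replicate 2 had them in replicate 1, the deeper library, in 47.2%. With reads of any class these shares were 31.5% and 52.8%. Reads on the opposite strand were found at 110 of 416 unspliced loci (26.4%) and at 13 of 232 spliced ones (5.603%).

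Where a locus was read in both libraries, the 3′ ends lay closer together than the 5′ ends at unspliced loci. Over the 149 loci, the most read model of each library ended a median of 11 nt apart, and 80 (53.7%) were within 25 nt. The 5′ ends were a median of 100 nt apart, with 58 (38.9%) within 25 nt. For the 99 unspliced loci the medians were 7 nt at the 3′ end and 131 nt at the 5′ end, whereas for the 50 spliced loci they were 507 and 47 nt, with 21 of 50 within 25 nt at either end. The model of replicate 2 was the longer at 107 of the 149. Leaving out ends that fell on an annotated transcript boundary, 75 of 143 3′ ends (52.4%) and 38 of 123 5′ ends (30.9%) were within 25 nt, a comparison added after the data were seen.

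**Figure D3:**
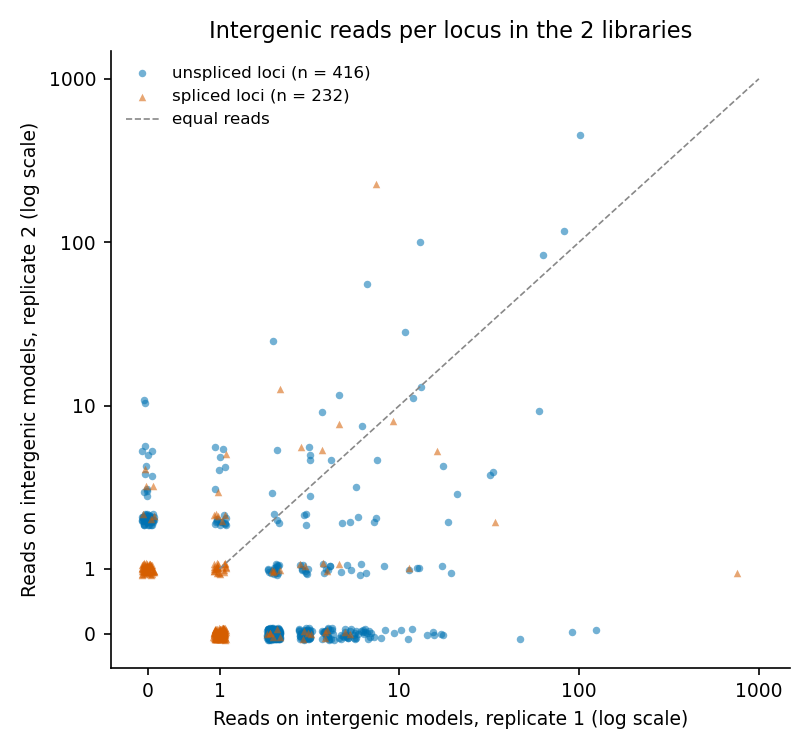
Reads on intergenic models at each of the 648 loci in replicate 1 (horizontal) and replicate 2 (vertical), both on log axes with 0 drawn at the left and lower edges and points jittered slightly. Circles are the 416 unspliced loci and triangles the 232 spliced ones, and 499 of the 648 sit on an edge, with reads in a single library.

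Exact junction chains were found again for 16 of the 155 spliced members of replicate 1 (10.3%, 6.02 to 16.2%) and for 17 of the 99 of replicate 2 (17.2%, 10.3 to 26.1%), in models of any class of the other library. Spliced antisense models of the same tables were found again at 43 of 454 (9.47%) and 48 of 439 (10.9%). The intervals of the intergenic and antisense models overlap in each library. Of spliced members with 2 or more reads, 9 of 27 and 6 of 15 were found again. The loci so matched numbered 22.

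By all intergenic reads, the most read of these after locus 1 was locus 15 (chr13:119661826-119669868, plus strand), with 34 and 2. The 34 of replicate 1 were on unspliced models, with 32 and 2 reads. The junction of locus 15 had 2 reads in replicate 2, and 2 in replicate 1 in another class. Next came the locus of RefSeq's protein-coding gene D17H6S56E-5 (chr17:34996732-35000354, minus strand), which lies head to head with Vars, the valyl-tRNA synthetase gene, 633 bases away. It had 9 and 8 reads on 2-exon models with a 5′ exon of 188 and 182 nt and a last exon of 2736 and 2738 nt. The locus near the pseudogene Gm28665 (chr7:48124177-48132210, minus strand) had 3 and 6 intergenic reads, and 5 and 46 of any class. Its junction had 3 reads in replicate 1 on a 2-exon intergenic model, and 40 in replicate 2 in another class. The lncRNA locus Gm33293 (chr5:67220877-67231686, minus strand) had 5 reads in replicate 1 on a 2-exon model, and its junction was read 1 time in replicate 2 in another class. C330020E22Rik, also a RefSeq lncRNA (chr4:129382714-129395662, plus strand), had 3 reads and 1 read. The 3 were on an unspliced model of replicate 1, where the junction of replicate 2's 2-exon model had 1 read in another class.

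Gm33293 is shown because its model has a TATAAA box close to the 5′ end. That 5′ end was the first base that RefSeq gives for the gene, and the sequence is shown with the box in capitals, from chr5:67231657-67231756 on the minus strand, with the 5′ end after the 70th base.
Gm33293: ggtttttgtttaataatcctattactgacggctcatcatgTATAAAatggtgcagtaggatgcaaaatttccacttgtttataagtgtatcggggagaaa
The box began 30 bases before the 5′ end. A second copy in the window, beyond the bases shown, began 32 bases after it. On either strand TATAAA stood in 2 of the 29 windows that hold a 5′ end of a spliced member (6.897%), those of Gm30375 and Gm33293, and in 13.6% of all RefSeq windows. The letters GGGCGG, a binding sequence of Sp1-like factors, stood in 13 of the 29 (44.8%, 26.5 to 64.3%) and in 35.7% of all. AAGGTCA, the half-site bound by the steroidogenic factor NR5A1, stood in none of the 29, which allows a share of up to 11.9%, and in 4.72% of all.

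Spliced members began at RefSeq gene starts more often than unspliced ones. On the same strand, 18 of the 155 of replicate 1 (11.6%, 7.03 to 17.7%) and 12 of the 99 of replicate 2 (12.1%, 6.42 to 20.2%) had their 5′ end in a promoter window. Among unspliced members these were 7 of 359 (1.95%, 0.788 to 3.98%) and 2 of 114 (1.75%, 0.213 to 6.19%), with intervals that did not overlap those of the spliced members, and among intergenic models outside the rule 18 of 2019 (0.892%) and 3 of 497 (0.604%). The 30 spliced members so placed belonged to 27 genes, and their 5′ ends were a median of 25.5 bases from the gene's start, with 15 within 25 bases. None of the 27 symbols is in M21, and 21 of the 30 members touched no M21 gene. The models were classed as intergenic against M21, so this is not independent of their choice. The rule did not use RefSeq.

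**Figure D4:**
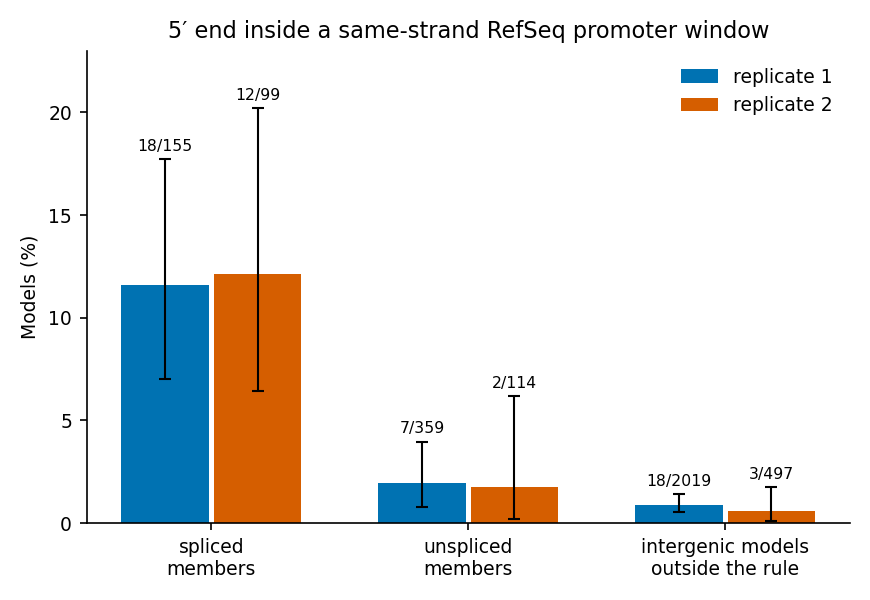
Percent of models whose 5′ end lies in a same-strand RefSeq promoter window (bars, with 95% Clopper-Pearson intervals and the counts above), by set and library. The spliced members stand at 11.6% and 12.1%, and the unspliced members and the models outside the rule are all below 2%.

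On the whole gene body, 80 of the 254 spliced members (31.5%), 90 of the 473 unspliced ones (19.0%) and 272 of the 2516 models outside the rule (10.8%) overlapped a RefSeq gene on their strand. An overlap of 1 base was enough, as at Snx10, where an unspliced member began on the last base that RefSeq gives for the gene. The spliced ones overlapped 70 RefSeq genes, of which 54 were lncRNA genes and 7 protein-coding genes whose symbols are absent from M21. The unspliced ones overlapped 86 RefSeq genes, of which 50 were protein-coding genes whose symbols are in M21. Another 26 lncRNA genes and 3 protein-coding genes of the 86 have symbols absent from M21. The models of replicate 1 beside Gid8, Ifnar1 and Hipk2, with 123, 44 and 16 reads, lay within RefSeq's bounds of those genes. Both bounds were within 250 bases of RefSeq's for 12 spliced members in 11 genes, among them Gm33293, where they differed by 4 and 0 bases, and Gm32571 (chr7:139358081-139360900), where they differed by 1 and 0, examples chosen after their values were seen. Strand was known for 27025 of the 49997 RefSeq genes, so these counts are lower bounds.

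Unspliced members lay closer to annotated genes than spliced ones. The median gap to the nearest KNOWN gene was 2273 bases for all members, 1953 in replicate 1 and 4388 in replicate 2. For models outside the rule it was 5665 and 2326, so members had the smaller median in replicate 1 and the larger one in replicate 2. It was 7666 bases for the spliced (7774 and 7057 by library) and 1397 for the unspliced (1308 and 1899). Within 5 kb, outside a gene, were 74 of 254 spliced members (29.1%) and 233 of 471 unspliced ones (49.5%). The 307 members of both kinds within 5 kb fell downstream of the gene on its strand (94), downstream on the other strand (84), upstream on its strand (67) and upstream on the other strand (62). Spliced members more than 50 kb from any KNOWN gene numbered 26 and unspliced ones 3.

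**Figure D5:**
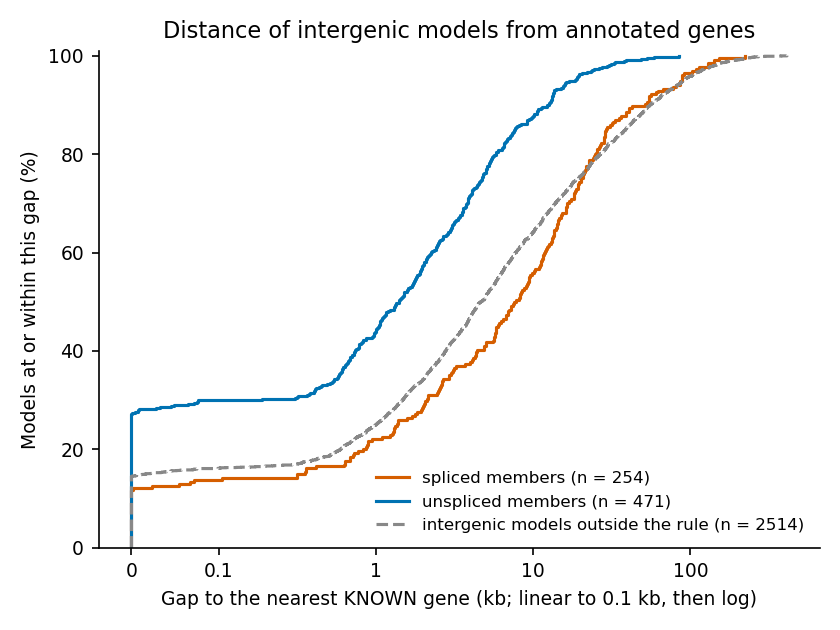
Cumulative percent of intergenic models by their gap to the nearest KNOWN gene, in kb on an axis that is linear to 0.1 kb and logarithmic beyond. The curve of unspliced members (solid, n = 471) starts at 27.2%, those that touch a gene, and stays above that of the spliced members (n = 254), whose median is 7666 bases, and of the models outside the rule (dashed, n = 2514).

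A share of members ended exactly where an annotated transcript does. In M21, 162 of the 727 members (22.3%) touched a gene, and in all 162 the overlap was 1 base, at an end that was also a transcript boundary. Among models outside the rule the same was true of 371 of 2516 (14.7%). Of the members, 106 had their 5′ end on the first base of a transcript of the opposite strand, 32 had it on the last base of a transcript of their own strand, and 22 had their 3′ end on the last base of an opposite-strand transcript. In 8 the 3′ end was on the first base of a transcript of the same strand. None had a 5′ end on the first base, or a 3′ end on the last base, of a transcript of its own strand. Locus 8 is of this kind. How the boundaries came to coincide was not tested.

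Part of the genes beside members had no reads, as did most KNOWN genes. Of 55536 KNOWN genes, 14965 had reads in replicate 1 and 13882 in replicate 2, with medians of 9.87 and 15.3 CPM among those read. The nearest KNOWN gene had a median of 4.94 CPM, which is counts scaled to library size, in replicate 1 and 5.10 in replicate 2. It was at 0 for 174 of 514 and 88 of 213 members. The nearest genes of unspliced members stood at 8.64 and 7.66 CPM, those of spliced members at 1.23 and 1.70, and those of models outside the rule at 0 and 3.402. The levels for spliced members and for models outside the rule are below that of 3 reads, 3.70 and 5.10 CPM. These levels are reads per gene, not per length. Among the adrenal genes, a 2-read unspliced model of replicate 1 (chr17:34724303-34725284, plus strand) overlapped Cyp21a1, the steroid 21-hydroxylase gene, on the opposite strand in that library's annotation and lay 2051 bases from a gene in M21. A 4-read one on the minus strand (chr15:74849749-74850195) overlapped Cyp11b2, the aldosterone synthase gene, in the annotation of replicate 1 and lay 815 bases after its end in M21, in a locus with 5 and 45 reads of any class. Both were picked out after their values were seen.

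The members with the most exons and the greatest length rested on few reads. In replicate 1 a 6-exon model (chr16:38036549-38088320, minus strand), 1 of 2 with that number, started 681 bases from Gsk3b, the glycogen synthase kinase gene, and had 1 read. In replicate 2 a 7-exon model upstream of Adgrb1 (chr15:74374730-74487642, minus strand), 1 of 3, also had 1 read. The longest model of replicate 1 had 4875 nt (chr16:30181066-30185940, 2 reads) and that of replicate 2 had 6002 (chr2:157549580-157555581, 5 reads, 781 bases from Blcap). Of members with at least 3 reads, the farthest from a gene was a 3-exon model on chromosome X (chrX:137358640-137401125, plus strand), 151877 bases from Gm8036, with 3 reads. The next was a 2-exon model 102690 bases from 1700041M05Rik (chr4:125344742-125346970, minus strand) with 4 reads. A 3-exon model 88934 bases from the pseudogene AC090479.1 (chr18:11469370-11535981, plus strand) had 5 reads, and its junctions were read 1 time in replicate 2. The other locus of chromosome 18 with equal junctions in both libraries (chr18:77747072-77751786, plus strand) had 4 and 5 reads. Its replicate 1 model overlapped Haus1 in that library's annotation, and its replicate 2 model lay 5781 bases from it. Those at 58791 bases from Gm26501 on chromosome 6 and 37699 bases from B4galt5 on chromosome 2 were unspliced, with 4 and 3 reads.

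Genes of the adrenal cortex and medulla were read in both libraries. The cortex genes Cyp21a1, Cyp11b1 and Star had 25459 and 14024, 11278 and 18259, and 7804 and 13750 reads in replicates 1 and 2. Cyp11a1, Hsd3b1 and Nr5a1 of the cortex had 6531 and 3408, 11333 and 2916, and 244 and 1104. Chga of the medulla had 2061 and 1448, Th 980 and 310, and Pnmt 318 and 48. The medulla genes Chgb and Dbh had 1621 and 2984, and 38 and 204. The kidney markers Umod, Slc12a1 and Kap, the liver marker Alb and Ucp1 of brown fat had 0 in both. The fat markers Adipoq (24 and 1) and Plin1 (59 and 19), the liver marker Apoa1 (1 and 0) and Hbb-bs (513 and 47) and Hba-a1 (539 and 39) of blood were read, and their part in the results was not tested.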

How the data were processed

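Long-read RNA-seq was deposited for 2 adrenal libraries of 1 group, with 810239 and 587861 reads, so that 3 reads, the most a count of 0 allows, are 3.70 and 5.10 CPM. The authors deposited raw read counts per transcript model, 1 table and 1 model annotation per library. Per the file headers, TALON classed the models on mm10 with GENCODE M21. The sources used here do not give the aligner, read correction or tool versions. Exon numbers and lengths are those of the models, not of the reads.

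From these counts, intergenic models were selected, merged into loci by at least 1 base of overlap on 1 strand, and placed against the KNOWN genes of the matching annotation. RefSeq gene bounds and promoter windows (GRCm38.p6) were compared with M21 first: of 37893 shared symbols 99.9% overlapped, and of windows at an M21 transcript start, 99.84% (plus strand) and 99.78% (minus strand) carried its first 20 bases. Library ratios used TMM factors of edgeR 4.0.16 with scipy 1.17.1, pandas 2.3.3 and Python 3.11.15, a pseudocount of 0.5 reads for log2 values, and library totals as sizes. The ratio test was tested on simulated data that held counting error only, without any other spread between libraries. No test has replicates within a library.

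The members, lists and loci were chosen with earlier results of these data known. Loci were named by rule: the 12 most read, spliced loci with 1 junction chain in both libraries, the models with most exons and the longest, the 5 farthest from a gene with at least 3 reads, and their neighbours. Splice sites, A-rich ends and repeats were not analysed here.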

Additional observations from a re-analysis of the deposited data

Results flagged for a closer look

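Models of other classes were filed under the intergenic genes and entered no comparison of intergenic reads. In replicate 1 there were 116 such models with 282 reads, the most read with 77. In replicate 2 there were 56 models with 106 reads, the most read with 40. They were marked because they hold reads in data outside the main measurement, above the 3 reads that a count of 0 allows. The 77-read model is in the genomic class at locus 3, beside Cyp2d22, and the 40-read one at the locus near Gm28665 on chromosome 7. Both are included where reads of any class are given.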

How the results depend on the processing

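Of the alternatives, 15 left the main values within their spread, or for called loci close to the main count, and 11 moved them. The 15 include leaving out either replicate for the share of reads and for the neighbour level. Each single value lies within the SD of the pair by construction, so those checks had a fixed outcome and show nothing about stability. For called loci the count was compared, not the share, so 44 of 648 counted as unmoved and 20 of 23 as moved. The count of member loci called between the libraries was 35. It was 20 of 23 with at least 20 reads (76.5% of all features called), 36 of 45 with total-count scaling (70.2%), 44 of 648 with at least 1 read (6.79%, against 32.7% of all features) and 42 of 65 with reads of any class (66.7%). Total-count scaling moved the median log2 ratio of all features from 0.0019 to 0.46, and under it loci 4 and 5 were called, as was locus 4 with at least 20 reads. Locus 1 turned from a log2 ratio of -8.99 to 1.59 with reads of any class. The members' share of reads was 0.318%. It was 0.0269% for spliced members, 0.485% for all intergenic models and 0.432% over reads on annotated models, with 0.271 to 0.365% when either replicate was left out. The share of loci found in both libraries was 22.99%. It was 28.2% with overlap on either strand, 36.9% for models with at least 3 reads and 30.9% with any class. The median distance of 2273 bases was 10728 to a gene on the same strand, and 1953 to 4388 (4387.5) when either replicate was left out. The neighbouring gene level of 5.02 CPM was 4.94 to 5.10 without either replicate and 0.617 for the nearest gene on the same strand. Agreement of 5′ ends was 30.9% without annotated boundaries, and 38.9% with them. Any-class reads, the removal of annotated boundaries and the neighbour level without a replicate were chosen after seeing the data. The splice site, A-rich end and repeat checks were not run, because they need a genome sequence, which was not used here. No paired analysis was possible because there is 1 group. The cause was not tested for any of these. The ratio test and the loci found in both need both libraries, so none was left out there. Most spliced members, 212 of 254, rest on 1 read.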
